A study of Mus musculus with 10 samples.

Results

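To determine if genes of the intestinal stem cell and of the Wnt response differed in newborn mice expressing interleukin-23 (IL-23), 10 genes were read from RNA-seq count tables of the jejunum: Lgr5, Olfm4, Ascl2, Smoc2, Axin2, Sox9, Bmi1, Lrig1, Rnf43 and Znrf3. They were listed by name, with earlier results of these data known, and all 10 were present among the 24062 gene symbols of the tables. The tables came from 10 libraries of jejunum at postnatal day 5. WT 1 to WT 5 were 5 libraries from wild type C57BL/6 mice, and KSR23 1 to KSR23 5 were 5 libraries from KSR23 mice of the same background. In KSR23 mice the 2 subunits of IL-23, p19 (gene Il23a) and p40 (gene Il12b), are encoded by a cassette in the ROSA26 locus that is silent until cre removes a stop sequence, and cre is driven by the keratin 14 promoter, which is active in keratinocytes. The cytokine is therefore switched on by a promoter of stratified epithelium and not by one of the gut lining. The study reports that control animals were usually littermates, but nothing in the labels ties the libraries to litters. Litter could therefore not be entered in the tests, and p-values set the group difference against the spread between these libraries.

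In the intestine of the adult mouse, stem cells sit at the base of the crypts and divide under Wnt signals, and in the first days after birth the corresponding cells lie in the pockets between the villi. Wnt ligands bind Frizzled receptors, R-spondins acting through the Lgr receptors keep Frizzled at the surface, and beta-catenin then acts with TCF proteins on target genes in the nucleus. Several target genes encode brakes on the same pathway, so their RNA is widely read as a sign of the strength of the signal.

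The libraries held 25.5 to 32.0 M counts in WT and 31.2 to 60.9 M in KSR23, with KSR23 1 (60.9 M) and KSR23 4 (51.5 M) the deepest. Levels are given as CPM, each count divided by the library's size in M, with sizes adjusted by TMM (trimmed mean of M-values), and 3 counts corresponded to 0.0427 to 0.119 CPM. Il22, a cytokine induced by IL-23, was nearly silent in WT (0 or 1 count a library) and reached 137 to 329 counts in the KSR23 libraries, at least 65.9-fold higher. Of its 75-base stretches, 29.9% also occur in the copy Iltifb. Il12b rose from 0.109 ± 0.0624 CPM (SD, n = 5) to 0.553 ± 0.335 (edgeR adjusted p = 0.00364, and 0.295 with replicates 1 to 3 alone), while Il23a was at 0.230 ± 0.183 and 0.450 ± 0.1001 CPM (adjusted p = 0.270). Replicates 4 and 5 of each group stood apart from the rest: among 9737 genes with a mean above 5 CPM, they lay within the range of replicates 1 to 3 of their own group at 80.3% to 89.8% of genes, where independent libraries would do so at about 50%. Each was the highest or lowest of its 5 libraries at 8.53% to 18.4% of genes, against 45.7% to 75.6% for the others and 40% for libraries that are independent and alike. The labels give each as a separate sample, and whether replicates 4 and 5 are independent animals or mixes of the others could not be settled. If they are not independent, n = 5 overstates the replication and the SDs and p-values are too small. Values from replicates 1 to 3 are therefore given as well. For the 10 genes, WT 4 lay within that range at 8, WT 5 at 9, KSR23 4 at 8 and KSR23 5 at 7.

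None of the 10 genes was called different between KSR23 and WT jejunum. Expression was compared over the 17632 genes that reached 5 counts in any library, with edgeR's likelihood ratio test (LRT) and its quasi-likelihood F test (QL), and a gene was called at a Benjamini-Hochberg adjusted p under 0.05. All 10 genes passed that filter, and 0 of 10 were called by LRT, QL or DESeq2. In the background of all tested genes, LRT called 18.5% (9.74% higher and 8.76% lower in KSR23) and QL called 15.4% (8.47% higher and 6.91% lower). Lrig1 was the 1 gene of the 10 with an unadjusted p under 0.05 by either test in edgeR, a mark that 29.98% of all tested genes passed by LRT. The values of the groups overlapped for 10 of 10 genes, whereas they did not overlap for 14.4% of tested genes (7.41% higher and 6.99% lower in KSR23). The log2 fold change, KSR23 over WT, was positive for 4 genes and negative for 6, with a median of -0.020 beside 0.03 over all tested genes. With replicates 1 to 3 alone, 0 of 10 were again called, against a background of 3.36% by LRT (2.01% higher and 1.35% lower) and 0.812% by QL (0.574% higher and 0.238% lower). Jejunum was sequenced whole, so fewer cells that express a gene and less of its RNA per cell cannot be told apart in any of these values.

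**Figure D1:**
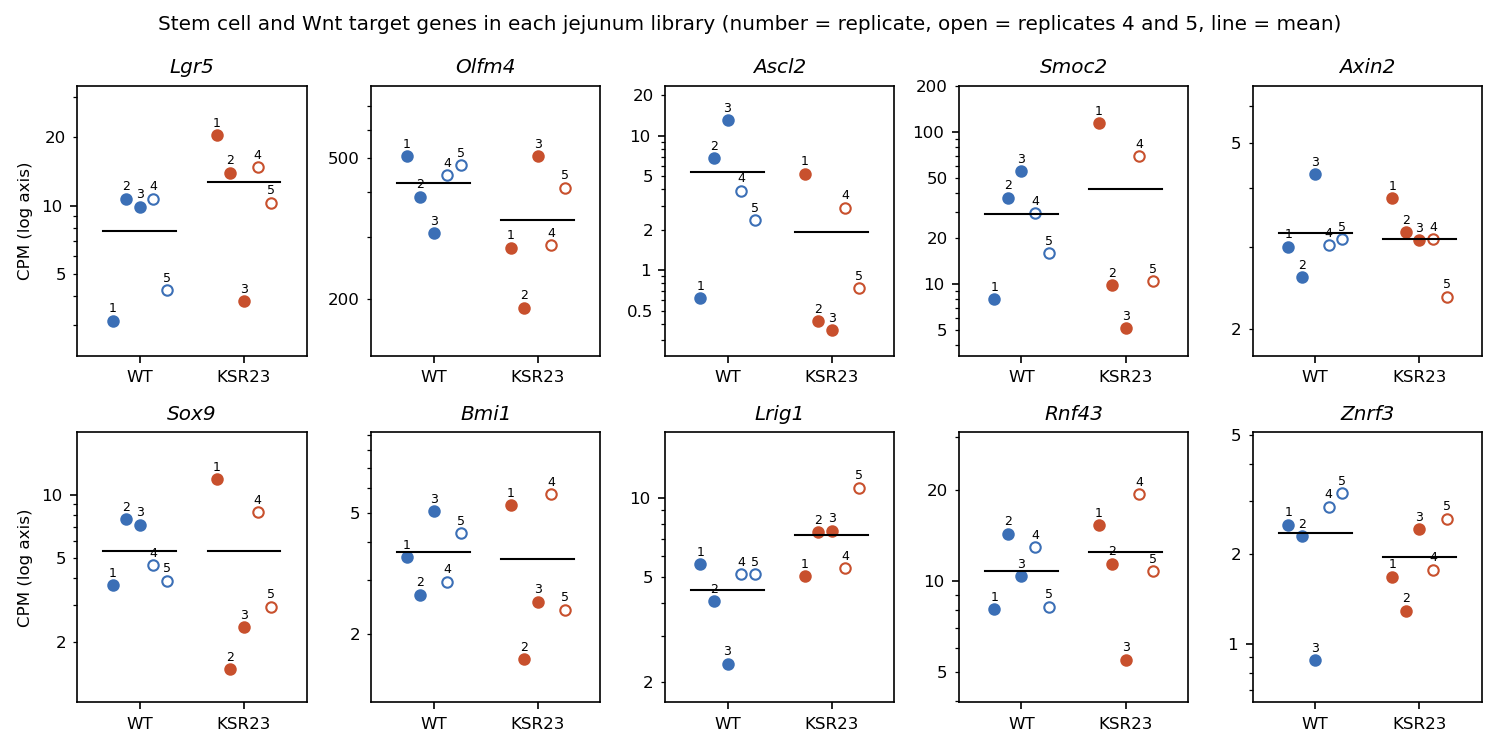
CPM (log axis) of each of the 10 genes in every library, with the replicate number beside each point, open points for replicates 4 and 5, and a line at the group mean. WT and KSR23 points overlap in all 10 panels; KSR23 1 and 4 lie above the other 3 KSR23 libraries for Smoc2, Sox9 and Ascl2.

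Lgr5 encodes the R-spondin receptor that marks crypt base stem cells (mm10, chromosome 10, 115450311 to 115587780, minus strand). Its level was 3.13, 10.7, 9.91, 10.7 and 4.24 CPM in WT 1 to 5 and 20.3, 14.0, 3.82, 14.8 and 10.3 CPM in KSR23 1 to 5. KSR23 1, 2 and 4 lay above every WT library, but KSR23 3 lay below 4 of the 5 WT libraries, so the groups overlapped. The mean was 7.75 ± 3.74 CPM in WT and 12.6 ± 6.10 in KSR23, a difference of 0.71 on the log2 scale with a standard error (SE) of 0.48 (adjusted p = 0.331 by both tests in edgeR). Its 95% interval ran from -0.23 to 1.64, that is from 0.855-fold to 3.12-fold. The fold change from replicates 1 to 3 alone was 0.72 (adjusted p = 0.786).

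Olfm4, a secreted glycoprotein of crypt base cells, was the most abundant of the 10 genes (chromosome 14, 79984081 to 80023139, plus strand). It stood at 505, 389, 307, 446 and 477 CPM in WT 1 to 5 and at 279, 189, 505, 283 and 412 CPM in KSR23 1 to 5. KSR23 1, 2 and 4 were below every WT library, and KSR23 3 reached the highest WT value. The means were 425 ± 78.6 CPM in WT and 334 ± 124 in KSR23, a difference of -0.35 on the log2 scale (SE 0.30, adjusted p = 0.477 by LRT and 0.426 by QL, 95% interval -0.94 to 0.25), and -0.27 with replicates 1 to 3 alone (adjusted p = 0.907). KSR23 3, the library lowest in Lgr5 in its group, was thus the highest in Olfm4. In WT the library lowest in Lgr5, WT 1, was likewise highest in Olfm4. Over the 9737 genes with a mean above 5 CPM, WT 1 and KSR23 3 deviated alike from their group means, with a correlation of 0.88. Their likeness was therefore not particular to Lgr5 and Olfm4.

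Ascl2 encodes a helix-loop-helix transcription factor that maintains the stem cell state (chromosome 7, 142966829 to 142969264, minus strand). Its level was 0.619, 6.79, 13.1, 3.92 and 2.37 CPM in WT 1 to 5 and 5.23, 0.419, 0.358, 2.92 and 0.734 CPM in KSR23 1 to 5. KSR23 2 and 3 lay below every WT library, with 13 and 9 counts, yet KSR23 1 exceeded 3 WT libraries and WT 1 was nearly as low as the lowest KSR23 libraries. The fold change was the largest in size of the 10 genes, -1.46 on the log2 scale (SE 0.81), from a mean of 5.36 ± 4.89 CPM in WT to 1.93 ± 2.13 in KSR23, and it did not pass the threshold (adjusted p = 0.219 by LRT and 0.282 by QL). Its interval, -3.04 to 0.12, reached from 0.122-fold to 1.09-fold. The estimate was -2.19 without KSR23 1, -0.81 without WT 3 and -1.73 with replicates 1 to 3 alone (adjusted p = 0.584), so it moved by over 1.5-fold with single libraries.

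Smoc2, a secreted calcium-binding matrix protein of the Lgr5 cell signature, had the widest ratio of highest to lowest CPM within a group (chromosome 17, 14279506 to 14404790, plus strand). It was at 7.96, 37.0, 55.1, 29.3 and 16.0 CPM in WT 1 to 5. In KSR23 1 to 5 it was at 115, 9.90, 5.13, 69.5 and 10.4 CPM. KSR23 1 and 4 lay above every WT library, KSR23 3 lay below every one, and the highest KSR23 library held 22.4 times the level of the lowest, against 6.92 times in WT. The fold change of 0.53 (SE 0.76, adjusted p = 0.701) became -0.22 when KSR23 1 was left out and 0.40 with replicates 1 to 3 alone (adjusted p = 0.935), and its interval ran from -0.97 to 2.02.

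Sox9, an HMG-box transcription factor of crypt progenitors and Paneth cells, showed the same arrangement (chromosome 11, 112782224 to 112787760, plus strand). Its level was 3.71, 7.64, 7.19, 4.64 and 3.90 CPM in WT 1 to 5 and 11.9, 1.48, 2.35, 8.25 and 2.94 CPM in KSR23 1 to 5. KSR23 1 and 4 were above all WT libraries and KSR23 2, 3 and 5 were below all of them, while the group means were nearly equal, 5.42 ± 1.86 and 5.38 ± 4.50 CPM. The log2 fold change was -0.0050 (SE 0.54, adjusted p = 0.997, interval -1.05 to 1.04), and it ranged from -0.46 to 0.29 as single libraries were left out and was -0.20 with replicates 1 to 3 alone (adjusted p = 0.958).

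Bmi1 and Lrig1 mark cells described as a slower or more reserve population. Bmi1, a Polycomb group protein (chromosome 2, 18677018 to 18686629, plus strand), was at 3.56, 2.69, 5.06, 2.97 and 4.28 CPM in WT 1 to 5 and at 5.29, 1.64, 2.54, 5.74 and 2.40 CPM in KSR23 1 to 5. The highest values were again those of KSR23 1 and 4, the other 3 KSR23 libraries lay below every WT library, and the log2 fold change was -0.066 (SE 0.40, adjusted p = 0.938, interval -0.86 to 0.73). Of the 75-base stretches of its exons, 10.1% also occur in Gm5946, so a part of its reads may not have been counted. Without 1 library at a time, the estimate for Bmi1 lay between -0.27 and 0.17, and with replicates 1 to 3 alone it was -0.22 (adjusted p = 0.942).

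Lrig1, a membrane protein that restrains ErbB receptors, came nearest to the threshold (chromosome 6, 94604529 to 94700158, minus strand). It was at 5.60, 4.07, 2.35, 5.13 and 5.14 CPM in WT 1 to 5 and at 5.03, 7.42, 7.51, 5.40 and 10.9 CPM in KSR23 1 to 5. KSR23 2, 3 and 5 exceeded every WT library, and KSR23 1 and 4, the libraries that led for Smoc2, Sox9 and Bmi1, lay within the WT range. The means were 4.46 ± 1.31 CPM in WT and 7.26 ± 2.35 in KSR23, a difference of 0.70 on the log2 scale (SE 0.35, interval 0.021 to 1.38), with an unadjusted p = 0.0440 by LRT in edgeR and 0.0382 by QL, and adjusted p = 0.153 and 0.142. With replicates 1 to 3 alone the fold change was 0.77 (adjusted p = 0.644). Its exons overlap those of Slc25a26 on the opposite strand, with 1.24% of its 75-base stretches shared, and whether the counting used strand is not stated.

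Axin2, Rnf43 and Znrf3 are the brakes that the Wnt signal induces on itself. Axin2, a scaffold of the complex that destroys beta-catenin (chromosome 11, 108920349 to 108950783, plus strand), was at 3.0, 2.58, 4.29, 3.02 and 3.12 CPM in WT 1 to 5 and at 3.81, 3.22, 3.10, 3.12 and 2.34 CPM in KSR23 1 to 5. The libraries of both groups lay together, from 2.34 to 4.29 CPM, with means of 3.20 ± 0.643 and 3.12 ± 0.523 CPM. Its log2 fold change of -0.035 (SE 0.29, adjusted p = 0.955) had the narrowest interval of the 10 genes, -0.61 to 0.54, so changes beyond 0.657-fold and 1.45-fold lay outside it. The estimate was between -0.069 and 0.092 when single libraries were left out.

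Rnf43 and Znrf3 are membrane ubiquitin ligases that remove Frizzled receptors from the surface, and they act on the same substrates. Rnf43 (chromosome 11, 87662722 to 87735539, plus strand) was at 8.08, 14.4, 10.3, 12.9 and 8.22 CPM in WT 1 to 5 and at 15.3, 11.4, 5.49, 19.4 and 10.8 CPM in KSR23 1 to 5. KSR23 1 and 4 were again above all WT libraries and KSR23 3 was below all, and the log2 fold change was 0.21 (SE 0.37, adjusted p = 0.755, interval -0.50 to 0.93). Znrf3 (chromosome 11, 5276324 to 5444847, minus strand) was at 2.51, 2.30, 0.881, 2.88 and 3.19 CPM in WT 1 to 5 and at 1.68, 1.29, 2.42, 1.77 and 2.63 CPM in KSR23 1 to 5. The 1 low WT value came from WT 3 with 24 counts, the groups overlapped, and the log2 fold change was -0.27 (SE 0.39, adjusted p = 0.700, interval -1.03 to 0.49). With replicates 1 to 3 alone the log2 fold changes of Axin2, Rnf43 and Znrf3 by LRT were 0.072, 0.0093 and -0.045.

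**Figure D2:**
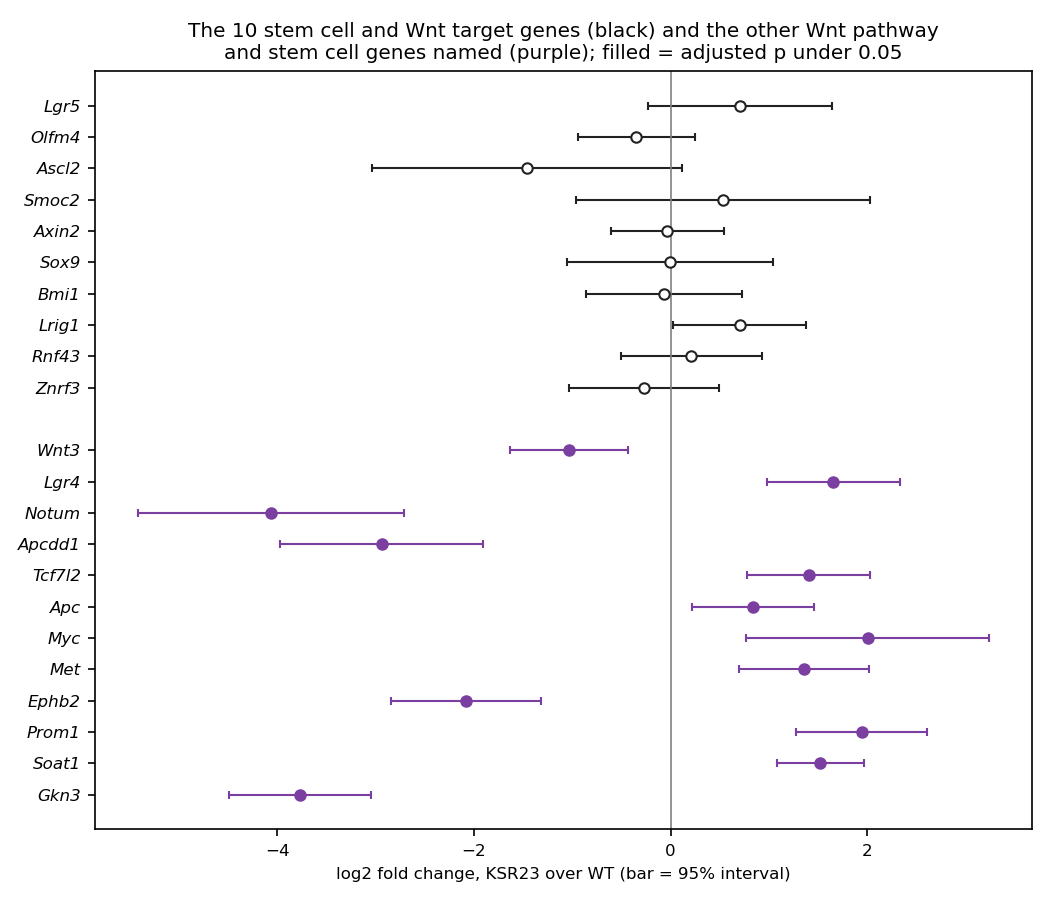
Log2 fold change, KSR23 over WT, of the 10 genes (black) and of other Wnt pathway and stem cell genes named in the text (purple), with 95% intervals; filled points have an adjusted p under 0.05 by LRT. The intervals of 9 of the 10 black points include 0 and that of Lrig1 starts at 0.021; Amer2 and Fzd9, which are at 0 counts throughout 1 group, are not drawn.

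Levels of different genes were compared per length, as CPM per kilobase of merged exons. In WT, Olfm4 stood far above the rest at 146 ± 27.1 CPM per kilobase (n = 5), followed by Smoc2 (9.57), Ascl2 (3.30), Rnf43 (2.38), Lgr5 (1.64), Sox9 (1.31), Bmi1 (1.0), Lrig1 (0.899), Axin2 (0.752) and Znrf3 (0.298). Among neighbours in this order, only the steps from Olfm4 to Smoc2 and from Axin2 to Znrf3 were free of overlap between libraries. Of the 28 pairs among the 8 genes from Smoc2 to Axin2, 8 did not overlap: Smoc2 lay above Lgr5, Sox9, Bmi1, Lrig1 and Axin2 in every library, and Rnf43 above Bmi1, Lrig1 and Axin2. In KSR23, Olfm4 was at 115 ± 42.8 and Znrf3 at 0.248 ± 0.0701 CPM per kilobase, again the highest and the lowest mean, and Ascl2 had a mean of 1.19, below those of Lgr5 (2.68), Rnf43 (2.75), Lrig1 (1.46) and Sox9 (1.3).

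The spread between libraries of 1 group differed among the 10 genes, without a clear break. The gene-wise biological coefficient of variation (BCV), edgeR's estimate of the relative spread within groups beyond counting error, was 0.877 for Ascl2 and 0.835 for Smoc2. Among the 12803 tested genes with a mean of 1 to 1000 CPM, whose median was 0.364, these are percentiles 98.1 and 97.2. Sox9 (0.582) and Lgr5 (0.519) followed at percentiles 84.7 and 79.0. Axin2 (0.305) and Olfm4 (0.332) varied least, at percentiles 14.6 and 32.6, and Bmi1, Lrig1, Rnf43 and Znrf3 lay between 0.372 and 0.433, at percentiles 53.3 to 68.1.

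**Figure D3:**
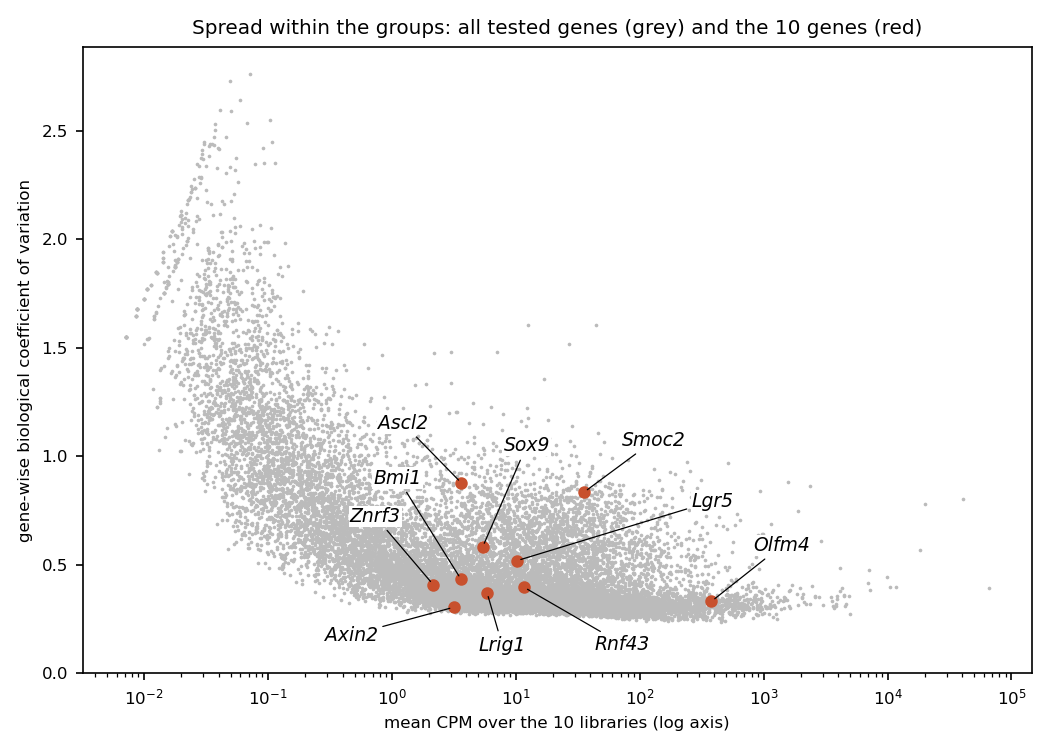
Gene-wise biological coefficient of variation against the mean CPM over the 10 libraries (log axis) for all 17632 tested genes (grey) and the 10 genes (red). Ascl2 and Smoc2 lie high among genes of similar level, and Axin2 lies at the lower edge.

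The highest and lowest levels were spread over the libraries as follows. KSR23 1 held the highest KSR23 level of 5 genes (Lgr5, Ascl2, Smoc2, Axin2 and Sox9) KSR23 4 of 2 (Bmi1 and Rnf43), KSR23 5 of 2 (Lrig1 and Znrf3) and KSR23 3 of 1 (Olfm4). KSR23 2 and KSR23 3 each held the lowest KSR23 level of 4 genes, and in WT the lowest level of 5 genes was that of WT 1 and the highest of 4 was that of WT 3. Over the 9737 genes with a mean above 5 CPM, KSR23 1 was the highest or lowest of its group at 57.1%, KSR23 2 at 45.7%, KSR23 3 at 75.6%, WT 1 at 67.2% and WT 3 at 54.7%, so such extremes were not particular to the 10 genes.

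Epithelium marker RNA moved between libraries as well, though not evenly over the markers. The summed level of 6 epithelium markers (Epcam, Cdh1, Krt8, Krt18, Cldn7 and Vil1, all above 0) ran from 1490 CPM in WT 1 to 4533 in WT 3, and from 2126 in KSR23 3 to 5678 in KSR23 2. The 6 smooth muscle markers ran from 1612 to 3665 in WT and from 1681 to 2269 in KSR23. Within WT, Epcam ran from 147 to 984 CPM and Vil1 from 315 to 520. Between groups, Cdh1 was called higher in KSR23 by LRT (log2 fold change 1.11, adjusted p = 0.0260; QL 0.0572; 0.489 with replicates 1 to 3 alone), while Epcam had a value of -0.44 (adjusted p = 0.686), so the sum is not a pure measure of the share of epithelial cells. Per 1000 epithelium marker counts, the ratio of the highest to the lowest WT library shrank from 3.44 to 1.82 for Lgr5, from 6.92 to 2.28 for Smoc2, from 21.2 to 6.95 for Ascl2 and from 2.06 to 1.57 for Sox9. It grew for the other 6 genes, from 1.64 to 5.00 for Olfm4, from 2.39 to 7.26 for Lrig1, from 3.62 to 8.66 for Znrf3, from 1.66 to 3.02 for Axin2, from 1.88 to 3.44 for Bmi1 and from 1.78 to 2.38 for Rnf43. In KSR23 the ratio shrank for 3 genes, from 5.33 to 2.70 for Lgr5, from 3.54 to 2.21 for Rnf43 and from 22.4 to 15.7 for Smoc2. It grew there for the other 7, among them Ascl2 (14.6 to 16.9), Sox9 (8.01 to 10.8), Olfm4 (2.67 to 7.12) and Znrf3 (2.04 to 5.02). Scaled to these markers in place of the library totals, 0 of 10 genes were called, and the median log2 fold change of all tested genes moved from 0.03 to -0.46. On that scale Rnf43 turned from 0.21 to -0.35, close to the median of all genes. Lrig1 went from 0.70 to 0.092 and Lgr5 from 0.71 to 0.24, both still above that median, and Ascl2 was at -1.68 (adjusted p = 0.0922).

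The Wnt pathway was described by 5 lists of ligands, receptors, inhibitors, signal transduction and other target genes, none of which holds the 10 genes. Of 93 genes on them, 82 were tested, and 6 were called higher and 7 lower in KSR23 by LRT, 15.9% of those tested, with a median log2 fold change of -0.065. QL called 10. These shares are near the background of 18.5% and 15.4%. Fzd9 and Amer2, among those called by LRT, each passed the filter through a single group, which set the direction of their calls. Of the 24 called genes that the naming rule picked from these and the further pathway lists (marker lists not included), LRT also called 10 with replicates 1 to 3 alone (Fzd9, Notum, Amer2, Prom1, Soat1, Gkn3, Ly6d, Ereg, Hes1 and Id2), and QL called 2 (Gkn3 and Ly6d).

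Of 23 Wnt ligands and R-spondins, 15 were tested, 1 was called lower (6.67%) and 0 higher, with a median of -0.33. Over all tested genes 8.76% were called lower and 9.74% higher. The 1 gene was Wnt3, a ligand that Paneth cells of the mature crypt supply to the stem cells. Wnt3 was at 3.19 to 4.95 CPM in WT (median 4.28) and at 1.27 to 2.58 in KSR23 (median 2.14), without overlap, and it fell from 4.19 ± 0.760 to 2.04 ± 0.487 CPM, a difference of -1.03 on the log2 scale (SE 0.31, adjusted p = 0.00772 by LRT and 0.0191 by QL). The adjusted p was 0.0564 without WT 4 and 0.482 with replicates 1 to 3 alone. The summed level of 5 Paneth cell markers went the other way, from 212 to 390 CPM in WT to 857 to 1911 CPM in KSR23, with Lyz1, Itln1 and Mmp7 called higher and the defensins Defa24 (log2 fold change -0.079, adjusted p = 0.908) and Defa17 (0.031, 0.965) not called. Their part in the levels of Wnt3 and Sox9 was not tested.

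Of 17 Wnt receptors, 16 were tested and 2 were called higher, Lgr4 and Fzd9, with a list median of 0.32. That is 12.5% of those tested, near the 9.74% called higher over all tested genes. QL called Lgr4 alone. Lgr4, the relative of Lgr5 that also binds R-spondins, was at 11, 5.83, 6.49, 9.73 and 11.2 CPM in WT 1 to 5 and at 19.3, 20.4, 41.1, 21.5 and 36.9 CPM in KSR23 1 to 5. Every KSR23 library exceeded every WT library, and Lgr4 rose by 1.65 on the log2 scale (SE 0.35, adjusted p = 7.30e-05 by LRT and 0.00371 by QL). With replicates 1 to 3 alone its adjusted p was 0.0670, and scaled to the epithelium markers its fold change was 1.15 (adjusted p = 0.181). KSR23 3, which was lowest in Lgr5, was highest in Lgr4. Fzd9, a Frizzled receptor, had 0 counts in every WT library and 10, 8, 3, 4 and 0 in KSR23 1 to 5, so its level was at most a few counts above the floor. It was called by LRT (adjusted p = 0.00301) and not by QL (0.0608). Fzd9 passed the filter through KSR23 alone, so the direction of its call was set by the filter.

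Of 18 Wnt inhibitors, 16 were tested, 4 were called lower (Notum, Apcdd1, Sfrp1 and Dact1) and 0 higher, and the list median was -0.76, beside 8.76% called lower over all tested genes. QL did not call Dact1. With replicates 1 to 3 alone, LRT called 1 of the 16 (Notum) and QL called 0. Notum, a secreted enzyme that removes the lipid from Wnt proteins and is itself a Wnt target, was at 0.929, 3.36, 3.63, 2.59 and 1.46 CPM in WT 1 to 5 and had 16, 0, 5, 14 and 0 counts in KSR23 1 to 5, a mean of 0.135 ± 0.124 CPM. All KSR23 libraries lay below all WT libraries, and Notum fell by 4.06 on the log2 scale (SE 0.69, adjusted p = 1.62e-06 by LRT, 0.00484 by QL, and 0.00320 and 0.152 with replicates 1 to 3 alone). Of its 75-base stretches, 26.2% are shared with the antisense genes Notumos and Myadml2os, which cannot be told apart from Notum if strand was not used. Apcdd1, a membrane protein that binds Wnt, was at 0.813 to 2.40 CPM in WT and 0.0565 to 0.358 in KSR23, with 2 to 11 counts in each KSR23 library, and fell by 2.94 on the log2 scale (SE 0.53, adjusted p = 2.41e-06 by LRT and 0.00361 by QL; 0.0829 with replicates 1 to 3 alone).

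Of 25 genes that carry the signal inside the cell, all were tested and 3 were called: Tcf7l2 and Apc higher, Amer2 lower, with a median of 0.19. That is 12.0%, beside 18.5% over all tested genes. Tcf7l2, the TCF factor of the intestinal epithelium, was at 12.9, 23.3, 15.3, 22.3 and 14.8 CPM in WT 1 to 5 and at 42.8, 62.2, 26.6, 50.8 and 52.3 CPM in KSR23 1 to 5. The groups did not overlap, and it rose by 1.40 on the log2 scale (SE 0.32, adjusted p = 3.06e-04 by LRT and 0.00510 by QL, 0.221 with replicates 1 to 3 alone, and 0.151 at a fold change of 0.84 when scaled to the epithelium markers). Apc, a component of the destruction complex, was at 16.4 ± 2.63 and 29.4 ± 10.8 CPM (log2 fold change 0.84, adjusted p = 0.0461), and its call was lost without any 1 of the 5 WT libraries, KSR23 3 or KSR23 5, with adjusted p up to 0.126, and with replicates 1 to 3 alone (0.498). Amer2, an Apc-binding protein, had 6 to 31 counts in each WT library and 0 in all KSR23 libraries. It was at least 5.93-fold lower (adjusted p = 1.13e-08 by LRT and 0.00411 by QL). With replicates 1 to 3 alone its adjusted p was 7.14e-04 by LRT and 0.157 by QL. Amer2 passed the filter through WT alone, so the direction of its call was set by the filter.

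The 10 other Wnt target genes were all tested. LRT called 2 higher (Myc and Met) and 1 lower (Ephb2), beside 9.74% higher and 8.76% lower over all tested genes. The list median was 0.47, while Axin2, Rnf43 and Znrf3 had no call. With replicates 1 to 3 alone, 0 of these 10 were called by either test, where the background was 3.36% by LRT and 0.812% by QL. Myc, a transcription factor of cell growth, was at 2.57 to 18.3 CPM in WT and at 34.7, 74.9, 4.21, 44.9 and 32.8 CPM in KSR23 1 to 5, so that KSR23 3 lay within the WT range. Its log2 fold change of 2.0 (SE 0.63, adjusted p = 0.0168) was not called by QL (0.0581), nor without WT 5 or KSR23 2 (up to 0.0694), nor with replicates 1 to 3 alone (0.431). Met, the receptor of hepatocyte growth factor, rose from 9.55 ± 1.33 to 24.4 ± 10.8 CPM (log2 fold change 1.35, adjusted p = 0.00120 by LRT and 0.00910 by QL, 0.187 with replicates 1 to 3 alone, and 0.239 at a fold change of 0.83 when scaled to the epithelium markers). Ephb2, an Eph receptor that positions cells in the crypt, was at 26.8, 26.5, 16.4, 28.0 and 24.1 CPM in WT 1 to 5 and at 2.96, 4.29, 10.3, 3.38 and 8.04 CPM in KSR23 1 to 5. Ephb2 did not overlap between groups and fell by 2.08 (SE 0.39, adjusted p = 8.29e-06 and 0.00277 by the 2 tests, 0.0691 with replicates 1 to 3 alone). KSR23 1 and 4, highest in Lgr5, Smoc2 and Sox9, were the lowest pair in Ephb2.

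**Figure D4:**
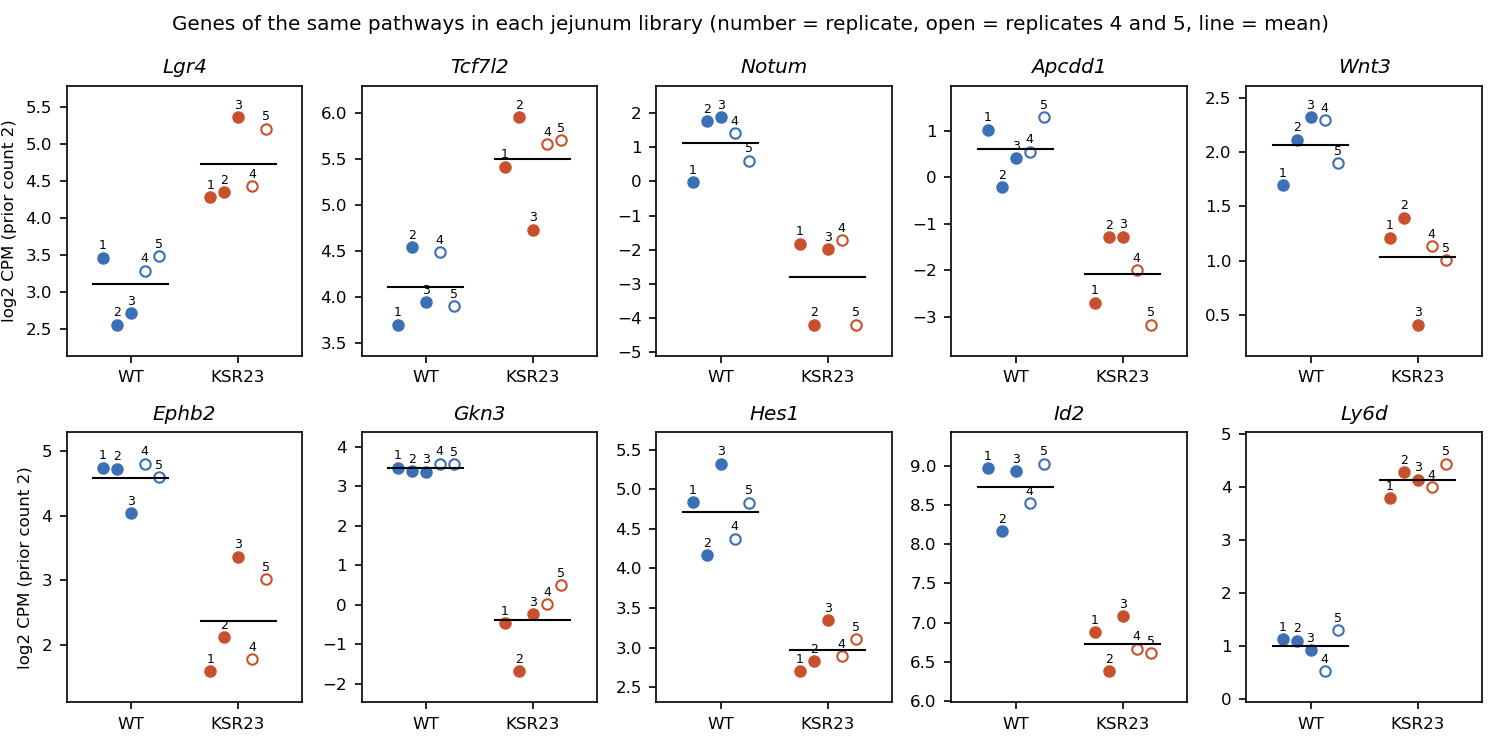
Log2 CPM (prior count 2) in each library of 10 named genes of the Wnt, stem cell, Notch, BMP and fetal lists, with the replicate number beside each point, open points for replicates 4 and 5, and a line at the group mean. The panels were picked among called genes whose WT and KSR23 points do not overlap, so their 3 higher (Lgr4, Tcf7l2 and Ly6d) and 7 lower are not the balance of all: of the 24 called genes the rule named, 10 were higher without overlap, 10 lower without overlap and 4 overlapped.

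The promoter windows of the members were searched for words bound by the factors of these pathways. Windows from RefSeq (GRCm38.p6, 250 bases before to 50 after the start) were held for Olfm4, Ascl2, Axin2, Bmi1, Lrig1 and Rnf43, with a pair of starts for Rnf43, 7 windows in all. The set of windows used held none for the annotated genes Lgr5, Smoc2, Sox9 and Znrf3, which were therefore not searched. On both strands, 0 of the 7 windows held the TCF core CTTTG, found in 53.9% of all 32851 windows, and therefore none held its longer forms CTTTGAT (3.73%) and CTTTGTT (5.85%); 0 held TTCNNNGAA, a word of STAT factors (8.30% of windows). The windows of Ascl2, Axin2, Bmi1 and Lrig1 are 66.3% to 73.0% G and C. The shares over all windows are not matched for G and C, so 0 of 7 is not read as a lack of the word. A word in a window is a description and not a bound site, and these windows do not cover introns or distant regions. The 200 bases before the start of Axin2 are shown because Axin2 is the general target of the pathway; no letter is in capitals since no word was found. The 120 bases before an internal start of Tcf7l2, a called gene, show what the word CTTTGTT, in capitals, looks like in a window, and were chosen because it is there. The other Tcf7l2 window holds CTTTG without the longer forms. Of the 16 windows of 14 other named genes, Tcf7l2 included, 8 held CTTTG and 2 held CTTTGTT, the second being that of Wnt3, which was called lower. Fzd9, Lgr4, Met, Ephb2, Soat1, Id2 and Plk1 held no CTTTG.
Axin2, mm10 chr11:108920149-108920348, plus strand: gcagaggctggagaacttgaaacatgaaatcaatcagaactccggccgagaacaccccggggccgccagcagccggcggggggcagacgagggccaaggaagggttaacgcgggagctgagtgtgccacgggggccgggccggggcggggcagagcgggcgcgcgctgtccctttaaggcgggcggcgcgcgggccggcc
Tcf7l2, mm10 chr19:55895201-55895320, plus strand: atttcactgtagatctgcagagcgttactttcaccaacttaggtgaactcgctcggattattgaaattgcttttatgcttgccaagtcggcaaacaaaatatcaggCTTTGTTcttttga
The Axin2 stretch is 72.0% G and C and the Tcf7l2 stretch 39.2%.

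Of 15 other genes associated with intestinal stem cells, 14 were tested and 3 were called, a share of 21.4% beside 18.5% over all tested genes. Prom1, a membrane protein of crypt progenitors, rose from 42.4 ± 12.7 to 163 ± 59.7 CPM (log2 fold change 1.94, adjusted p = 1.43e-06), and Soat1, a cholesterol esterifying enzyme, from 47.9 ± 1.98 to 137 ± 10.2 CPM (1.52, adjusted p = 2.95e-09). Scaled to the epithelium markers, where the median of all genes was -0.46, their fold changes were 1.41 and 0.96 and neither was called (adjusted p = 0.0944 and 0.148). Gkn3, a secreted gastrokine reported in Lgr5 cells, was at 11.1, 10.4, 10.3, 11.9 and 11.7 CPM in WT 1 to 5 and at 0.668, 0.258, 0.795, 0.956 and 1.35 CPM in KSR23 1 to 5. It did not overlap between groups and fell by 3.77 on the log2 scale (SE 0.37, adjusted p = 1.03e-18 by LRT and, with replicates 1 to 3 alone, 1.09e-07 by LRT and 0.0168 by QL).

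Genes of the neighbouring pathways were read in the same fit. Of 14 Notch genes 1 was called, a share of 7.14% beside 18.5% over all tested genes. This was Hes1, the repressor that Notch induces, which fell from 27.1 ± 8.60 to 7.91 ± 1.47 CPM (log2 fold change -1.78, adjusted p = 1.02e-06). Of 22 BMP genes 5 were called lower (Bmp7, Id2, Smad6, Smad7 and Bmp4) and 1 higher (Smad4), with a median of -0.45, beside 8.76% lower and 9.74% higher over all tested genes. QL called 3 lower and 1 higher, and LRT called 1 of the 22 with replicates 1 to 3 alone. Id2, an inhibitor of helix-loop-helix factors that BMP signals induce, fell from 434 ± 101 to 107 ± 19.9 CPM (-2.02, adjusted p = 1.98e-11). Bmp7, a ligand, was at 28.3 to 55.5 CPM in WT and at 19.9, 0.548, 1.79, 13.6 and 1.58 CPM in KSR23 1 to 5, with KSR23 1 and 4 highest as for Smoc2 and Sox9 (log2 fold change -2.42, and -3.12 without KSR23 1; adjusted p = 0.0158, QL 0.0617, and 0.232 with replicates 1 to 3 alone). Smad4, the shared mediator, had a fold change of 0.87 (adjusted p = 0.0175), with the call lost without any 1 of 4 libraries (WT 1, WT 4, WT 5 or KSR23 5) and with replicates 1 to 3 alone (0.652).

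Of 12 genes of the fetal and regenerating epithelium, 2 were called higher and 2 lower, beside 9.74% and 8.76% over all tested genes. Ly6d, a surface protein of the Ly6 family, rose from 1.97 ± 0.385 to 17.7 ± 3.04 CPM (log2 fold change 3.17, adjusted p = 2.90e-21), and Ereg, a ligand of ErbB receptors, rose by 2.73 (adjusted p = 1.64e-07). Areg, another ErbB ligand, fell by 2.29 (adjusted p = 0.00309, and 0.134 with replicates 1 to 3 alone), and Anxa3 fell by 0.82 (adjusted p = 0.0348), a call lost without any 1 of WT 1, WT 4, WT 5, KSR23 1, KSR23 2, KSR23 4 and KSR23 5 (adjusted p up to 0.141) and with replicates 1 to 3 alone (0.697). Of 20 proliferation genes, 8 were called higher and 0 lower (7 higher by QL), beside 9.74% and 8.47% higher over all tested genes, with a median of 0.60. With replicates 1 to 3 alone 0 of the 20 were called by either test, where the background was 3.36% by LRT and 0.812% by QL. Plk1, a mitotic kinase, rose by 1.36 (adjusted p = 6.89e-04). Rrm2, a subunit of ribonucleotide reductase, had a fold change of 1.76 (adjusted p = 0.0284, QL 0.0741) and lost the call without any 1 of WT 1, WT 4, WT 5, KSR23 2, KSR23 4 and KSR23 5 (adjusted p up to 0.112). Scaled to the epithelium markers, with the median of all genes at -0.46, Plk1 (0.77), Rrm2 (1.23), Smad4 (0.39), Apc (0.41) and Anxa3 (-1.37) were not called. The fold change of Anxa3 was larger in size than on the main scale.

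Other cell types were read by their markers. The 6 fibroblast markers summed to 1248 to 1893 CPM in WT and 1234 to 1756 in KSR23, and the 5 immune cell markers in the files to 603 to 712 and 470 to 639 CPM. The 7 markers of enteric neurons and glia summed to 70.0 to 90.1 CPM in WT and 18.1 to 37.0 in KSR23, a difference that lay in S100b alone (48.7 ± 13.4 and 0.595 ± 0.280 CPM). Without S100b the other 6 summed to 20.4 to 34.3 CPM in WT and 17.4 to 36.9 in KSR23, and among them Ret was called higher (7.87 ± 1.67 and 15.1 ± 5.61 CPM, adjusted p = 0.0315, and 0.480 with replicates 1 to 3 alone), with overlapping groups. The 8 markers of the pancreatic acinar cell, of which Pnlip, Amy2a5 and Ptf1a were under the filter, summed to 1.73 to 16.7 CPM in WT and 0.395 to 0.762 in KSR23. WT 1, lowest in Lgr5, Ascl2, Smoc2, Sox9 and Rnf43 among WT libraries, had the lowest epithelium sum and the highest smooth muscle (3665 CPM) and acinar (16.7 CPM) sums. Their part in these levels was not tested.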

How the data were processed

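RNA of whole jejunum was primed with oligo-dT from picogram amounts, amplified by PCR without molecular identifiers, and read from 1 end for 75 bases. The deposited values were counts. Per the labels and the study's methods the authors mapped reads to mm10 with TopHat2 2.1.0. They counted reads strictly inside gene models with HTSeq 0.6.1p1, without normalization or filter. The study's methods do not state whether RNA of several animals was combined. The strand setting is not stated, and the 8.62 to 17.1 M reads per library with several alignments entered no gene, which lowers genes with close copies. Floors cover counting error only. The files also list the counter's own totals, which were not used as genes.

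Groups came from the sample titles. Counts of 24062 symbols were scaled by TMM and fitted over all 10 libraries in edgeR 4.0.16 (R 4.3.3), with group as the only term, by the study's own likelihood ratio test, with edgeR's quasi-likelihood test and DESeq2 1.42.0 as further tests. A gene was kept when any library reached 5 counts. P-values were adjusted over all 17632 tested genes, and intervals are estimate ± 1.96 SE. Named beside the 10 genes are, per list, at most 2 called genes with the largest fold change each way; other called pathway genes are named without values, single markers (Cdh1, Epcam, Vil1, S100b, Ret, Defa24, Defa17) were given values after these were seen, and the label check covers Il22, Il23a and Il12b. Exon lengths, positions and shared 75-base stretches came from GENCODE M21 (mm10), which held 94.5% of the symbols. The members and lists were chosen with earlier results of these data known. Alternatives were other tests, scalings and filters, the replicate number as a block, and fewer libraries. The scripts were tested on simulated data.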

Additional observations from a re-analysis of the deposited data

Results flagged for a closer look

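Over 71 sets of 5 libraries (each named gene in each group, where counts allowed), Dixon's test for a single outlying value found 5, where chance gives about 1 set in 20. Znrf3 was lowest in WT 3, at -0.10 log2 CPM beside 1.23 for the next library, on 24 counts. Ephb2 was lowest in the same library, at 4.04 beside 4.60. Myc was lowest in KSR23 3, at 2.09 beside 5.04, and Areg was lowest in KSR23 3, at -2.53 beside -0.20, on 3 counts. Il12b was lowest in WT 1, at -4.20 beside -2.58, on 0 counts.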

How the results depend on the processing

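In every alternative run, 0 of the 10 genes were called. The fold changes that changed sign were all uncalled. Smoc2 was at -0.32 with the replicate number as a block and between -0.22 (without KSR23 1) and 0.89 when single libraries were left out. Sox9 was at 0.046 with library totals alone and between -0.46 and 0.29 without single libraries. Axin2 was at 0.072 (LRT) and 0.071 (QL) with replicates 1 to 3 alone and between -0.069 and 0.092 without single libraries, Bmi1 between -0.27 and 0.17, and Rnf43 at -0.35 scaled to the epithelium markers. Over all genes, 1717 were called higher and 1545 lower. These counts were 1082 and 1120 with the replicate block, 385 and 1501 scaled to the epithelium markers, 1414 and 1858 with library totals alone, and 346 and 233 (LRT) or 99 and 41 (QL) with replicates 1 to 3 alone, an alternative of which the second was chosen after seeing the data. Leaving out 1 library gave 1252 to 2102 higher and 1062 to 1882 lower. When 5 or more counts were required in every library, 1543 were called higher and 1356 lower. Under that filter Notum, Apcdd1, Amer2, Fzd9 and Areg were not tested, nor were Il22, Il23a and Il12b. Same-numbered libraries deviated from their group means with correlations of -0.74, 0.41, -0.69, 0.36 and 0.49, so the numbers were not taken to pair the samples, and 2 libraries of 10 (WT 4 and KSR23 2) correlated best with their own number; of the 24 called genes that the naming rule picked from the pathway lists, 7 lost the call with the replicate block (Wnt3, Apc, Myc, Areg, Anxa3, Smad4 and Rrm2, adjusted p = 0.0514 to 0.180). The cause of these changes was not tested. With 5 libraries a group, changes in Ascl2 and Smoc2 would have to be large to be seen, given their SE of 0.81 and 0.76.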
